A study of Mus musculus with 4 samples.

Results

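F-box proteins are the substrate receptors of SCF ubiquitin ligases, and their genes were examined in double positive thymocytes, which carry both CD4 and CD8, from mice with and without deletion of Ikaros. The members were all probe sets with a single gene symbol that began with Fbxl, Fbxw or Fbxo and a number. These were 115 of 45037 probe sets and stood for 67 of 18193 genes, of which 17 were Fbxl, 32 Fbxo and 18 Fbxw genes. The symbol Fbxl12os names an opposite-strand transcript and not an F-box protein, which left 66 protein genes. The members were chosen by symbol alone, but the family was selected on the low signal of Fbxw10 in the Cre-positive mice of these same arrays. Values of Fbxw10 are therefore given as a description, and where it enters a count of calls nothing is read from that.

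A total of 4 mice were profiled, with 1 Affymetrix array each. Mice labelled Ikf/f CD4-Cre- (2 animals, called Cre-negative) had no Cre, and both their Ikaros alleles were floxed. Those labelled Ikf/f CD4-Cre+ (2 animals, called Cre-positive) combined the same alleles with the CD4-Cre transgene, in which Cre follows Cd4 regulatory sequences and so acts from the double positive stage. All 4 mice were Ikf/f, and no mouse carried CD4-Cre without the floxed alleles, so effects of Cre and of Ikaros loss cannot be told apart. The sources used here give no age, sex, strain background or way of isolating the cells, nor whether the mice were littermates.

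In an SCF ligase the scaffold Cul1 holds the RING protein Rbx1 at one end and the adaptor Skp1 at the other, and Skp1 grips the F-box of an interchangeable receptor that selects the substrate. Fbxw proteins read their substrates through WD40 repeats, Fbxl proteins through leucine-rich repeats, and Fbxo proteins through other domains. In thymocytes the family is best known through Fbxw7, which marks Myc, Notch and cyclin E for degradation, and through Skp2, which does so for the cell cycle inhibitor p27. Ikaros, the product of Ikzf1, is a zinc finger protein that binds DNA with a GGGAA core.

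Signals are RMA log2 values, in which a step of 1 is a doubling of signal. The brightest probe set stands for each gene, and differences are Cre-positive minus Cre-negative with the standard error (SE) of limma. Levels of different probe sets are not comparable, so only differences of the same probe set between arrays are read. Ikzf1 fell by 1.53 (SE 0.16, limma adjusted p = 0.024), with 12.40 and 12.08 without Cre against 10.80 and 10.62 with Cre. The call on Ikzf1 was lost when any array was left out, with an adjusted p between 0.0717 and 0.164, the mean of its 2 probe sets differed by −0.88, and where its probes lie relative to the deletion is not known here. The mean of 9 double positive markers lay between 11.74 and 11.92 on every array, and 0 were called in limma (3 at unadjusted p below 0.05). Their median difference was −0.14. The groups did not overlap for 7 of the 9 markers, 6 lower and 1 higher with Cre. Over all genes tested 52.9% did not overlap, 18.7% lower and 34.2% higher. An unadjusted p below 0.05 was seen for 20.6% of all genes tested. Sample 2 without Cre had the Xist and Kdm5d signals of a female (12.75 and 2.86), and the other 3 arrays those of males. Over all 11639 genes kept by a signal minimum of 4.76, 160 passed in limma at an adjusted p under 0.05, 129 higher and 31 lower. The share of higher calls was 80.6%, or 61.0% with each array centred on the median of kept genes, under which the all-gene median shifted from 0.06 to −0.07.

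Fbxw10, an F-box protein with WD40 repeats, had the lowest difference of the family. It read 7.93 and 7.98 in samples 1 and 2 without Cre, against 5.50 and 5.40 in samples 1 and 2 with Cre. Both Cre-positive arrays lay far below both Cre-negative arrays, and mice of the same group were close together. The group means were 7.95 ± 0.04 and 5.45 ± 0.07 (SD, n = 2 each), a difference of −2.50 ± 0.11 (SE). The Cre-positive values lay near the medians of all probe sets on those arrays, 5.23 and 5.25, and above the signal minimum of 4.76. How far they exceed background was not tested. Leaving out single arrays gave differences of −2.55 to −2.46. A single probe set stands for Fbxw10 on this array, so no other probe set could be set against it. In RNA from a mixed population, fewer cells with a transcript and less of it per cell cannot be told apart.

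The 300 bases around the start of Fbxw10 are printed because this gene stands farthest from zero, and those of Fbxo27 and Fbxo17 because these adjacent genes differed in opposite directions. The windows run from 250 bases before to 50 after the gene's start in RefSeq (GRCm38.p6), 5′ to 3′ on the gene's strand, and capitals mark GGGAA or its reverse complement TTCCC.
Fbxw10 (chr11:62846873-62847172, + strand): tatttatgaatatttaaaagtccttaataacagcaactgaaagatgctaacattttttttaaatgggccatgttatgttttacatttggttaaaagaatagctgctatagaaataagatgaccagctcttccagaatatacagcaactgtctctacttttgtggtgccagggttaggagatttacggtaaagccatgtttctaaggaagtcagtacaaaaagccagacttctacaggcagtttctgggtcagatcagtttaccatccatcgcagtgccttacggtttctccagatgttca
Fbxo27 (chr7:28692599-28692898, + strand): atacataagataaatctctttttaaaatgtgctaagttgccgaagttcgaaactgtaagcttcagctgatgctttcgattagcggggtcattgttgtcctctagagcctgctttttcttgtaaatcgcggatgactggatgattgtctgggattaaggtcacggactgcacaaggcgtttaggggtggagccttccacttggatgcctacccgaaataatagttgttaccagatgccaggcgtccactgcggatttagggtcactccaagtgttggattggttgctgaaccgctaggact
Fbxo17 (chr7:28716532-28716831, + strand): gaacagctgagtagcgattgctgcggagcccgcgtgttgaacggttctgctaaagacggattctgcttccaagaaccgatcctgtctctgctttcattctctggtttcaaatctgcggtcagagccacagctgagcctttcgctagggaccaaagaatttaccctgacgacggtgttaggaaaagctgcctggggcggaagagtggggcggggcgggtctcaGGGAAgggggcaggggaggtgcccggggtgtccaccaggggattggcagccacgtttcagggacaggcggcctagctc
The Fbxw10 and Fbxo27 windows held 0 matches and the Fbxo17 window 1. Of the 49 members with a window in the table, 23 (46.9%) held at least 1 match, against 62.4% of 27025 genes. Among genes kept by the signal minimum the shares were 51.3% of 39 members and 64.3% of 9417 genes. A match is a run of letters and not a binding site, and a window without one says nothing of Ikaros binding elsewhere.

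Fbxw8, which pairs with the cullin Cul7, had the highest difference. It read 6.59 and 6.46 in samples 1 and 2 without Cre, against 8.77 and 7.74 in samples 1 and 2 with Cre. The groups did not overlap, and the Cre-positive mice stood apart from each other by about as much as the nearer of them stood from the Cre-negative mice. The difference was 1.73 ± 0.33 (SE) and did not pass over all genes (limma adjusted p = 0.075). Without Cre-positive sample 2 it was 2.25 and passed (limma adjusted p = 0.0189). A further Fbxw8 probe set, of the kind that can bind several transcripts, read 5.09 and 5.52 without Cre against 8.10 and 6.90 with Cre. That probe set gave the same order of the arrays within the Cre-positive group and a difference of 2.20. The remaining probe set lay below the signal minimum and differed by 0.02.

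**Figure D1:**
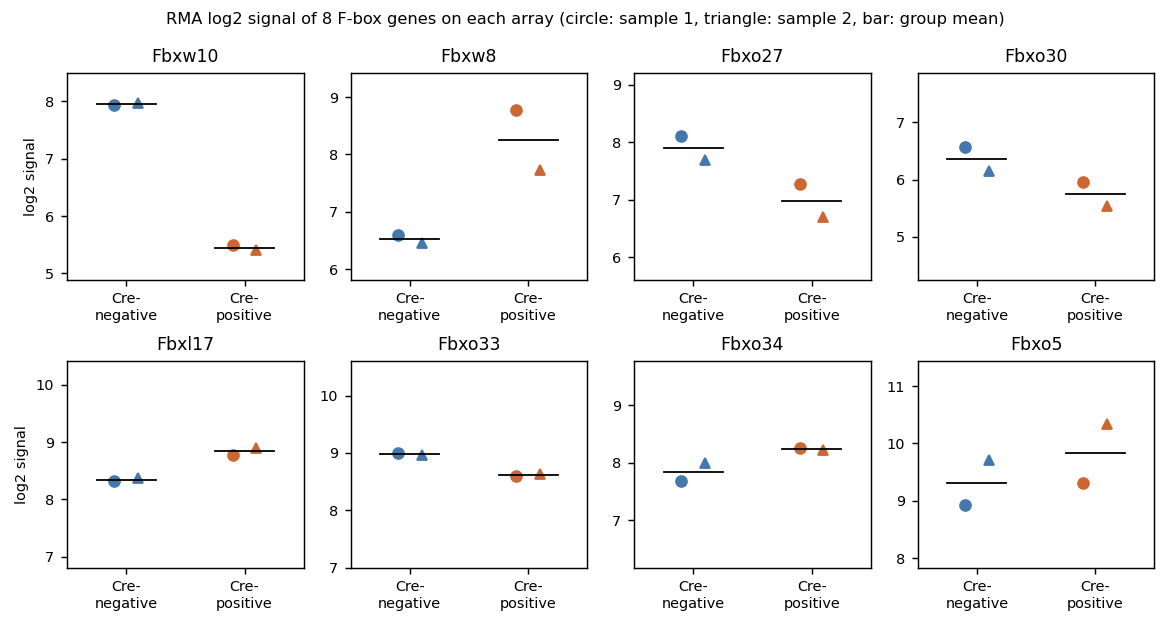
RMA log2 signal of 8 F-box genes on each of the 4 arrays, with circles for sample 1, triangles for sample 2, blue for Cre-negative, orange for Cre-positive and a bar at each group mean; every panel spans 3.6 log2 units. Fbxw10 had means of 7.95 without Cre and 5.45 with Cre and close replicates, the Cre-positive arrays of Fbxw8 were spread from 7.74 to 8.77, and the groups overlapped for Fbxo5.

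Apart from these genes most members differed by little, as did most genes on these arrays. Of the 67 members, 50 passed the signal minimum. Of these, 0 were called higher and 1, Fbxw10, was called lower in limma, against 1.37% of all kept genes called (1.11% higher and 0.266% lower), a comparison from which nothing is read because this contrast led to the family. At an unadjusted p under 0.05, 5 members were higher and 4 lower, 18% of the members against 20.6% of all genes (14.3% higher and 6.29% lower). Both arrays of one group lay beyond both of the other for 26 members, 13 higher and 13 lower, which is 52% against 52.9% of all genes, where 34.2% were higher and 18.7% lower. A total of 45 members (90%) differed by less than 0.5 in size, against 87.4% of all genes. A difference of at least 1 was seen for 2.47% of all genes and, among the members, for Fbxw10 and Fbxw8. The median difference was −0.01 for the members and 0.06 for all genes, a gap of −0.07. Centring shifts both equally and so cannot change that gap. It was −0.03 without a filter and −0.10 with the signal minimum at the 60th percentile. The spread of the family median between replicates was 0.06, about the size of the gap. A gene that passed the minimum only through the group in which it is high had to differ, so these counts describe the kept members alone.

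The 17 members below the minimum lay between 2.66 and 4.82 on every array and differed by −0.19 to 0.28. Among them was Fbxo15, a gene of embryonic stem cells. The 9 Fbxw genes of a cluster on chromosome 9, largely oocyte genes in the mouse, are near copies of each other, and how far the array can separate them was not tested. In that cluster 3 of 9 genes passed the minimum, Fbxw16 at −0.15, Fbxw19 at −0.03 and Fbxw22 at 0.10, each with overlapping groups.

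By subfamily, the 11 kept Fbxl genes had a median difference of 0.01 and ran from −0.31 to 0.49. For the 27 kept Fbxo genes the median was −0.03, with a range of −0.92 to 0.51. The 12 kept Fbxw genes also had a median of −0.03, and held both extremes of the family. The groups were apart for 4 Fbxl, 16 Fbxo and 6 Fbxw genes, which is 36.4%, 59.3% and 50% of those kept, against 52.9% of all genes.

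**Figure D2:**
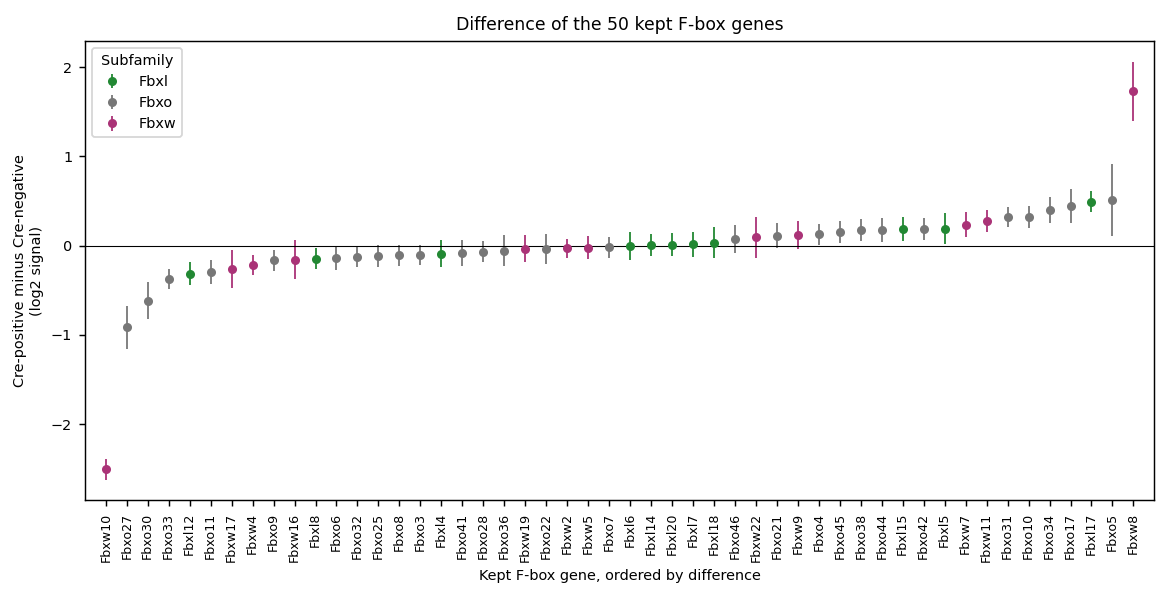
Difference in RMA log2 signal, Cre-positive minus Cre-negative, of the 50 kept F-box genes in order of size, coloured by subfamily, with bars of 1 SE from limma and n = 2 per group. Fbxw10 at −2.50 and Fbxw8 at 1.73 stand away from a run of 48 genes between −0.92 and 0.51.

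Several Fbxo proteins recognise sugars on misfolded glycoproteins. Genes of these and related proteins lie in 2 groups of neighbours, Fbxo6, Fbxo44 and Fbxo2 on chromosome 4 and Fbxo27 and Fbxo17 on chromosome 7. Fbxo27 read 8.11 and 7.69 in samples 1 and 2 without Cre, against 7.27 and 6.70 in samples 1 and 2 with Cre. Both Cre-positive arrays were below both Cre-negative arrays, with a spread within each group. The difference of −0.92 ± 0.24 (SE) did not pass (limma adjusted p = 0.123). Another Fbxo27 probe set, below the minimum, differed by −0.34. Its neighbour Fbxo17 read 5.90 and 5.92 against 6.62 and 6.09, a difference of 0.45 ± 0.19 that did not pass either (limma adjusted p = 0.274). Most of that difference lay in Cre-positive sample 1. On chromosome 4, Fbxo6 differed by −0.14 and Fbxo44 by 0.17, and Fbxo2 lay below the minimum at 3.41 to 3.78 on every array.

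Several members act on cell cycle and growth regulators, and among them Fbxo5 varied within both groups. It encodes Emi1, an inhibitor of the anaphase-promoting complex that is made as cells enter S phase, and read 8.92 and 9.71 in samples 1 and 2 without Cre, against 9.32 and 10.35 in samples 1 and 2 with Cre. The groups overlapped, sample 2 being higher than sample 1 in both, and the difference was 0.51 ± 0.40 (SE, limma adjusted p = 0.533), or −0.0016 to 1.03 with an array left out. The mean of 27 proliferation genes followed the same order, at 8.37 and 9.31 without Cre against 9.03 and 9.88 with Cre. The part of proliferation in the Fbxo5 values was not tested.

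Fbxw7 read 9.25 and 9.24 without Cre against 9.33 and 9.63 with Cre, a difference of 0.24 ± 0.14 (limma adjusted p = 0.411). Its other probe set differed by 0.30. Fbxo31, a receptor for cyclin D1, read 7.32 and 7.37 against 7.69 and 7.65, a difference of 0.32 ± 0.11 (limma adjusted p = 0.193). Its other probe set above the minimum differed by −0.02, so the difference was seen with 1 probe set of 2. Fbxl12, linked to the turnover of cyclin-dependent kinase inhibitors, differed by −0.31 ± 0.13 and Fbxo11, a receptor for Bcl6, by −0.30 ± 0.13, and neither passed. Fbxo4, another cyclin D1 receptor, differed by 0.13, and Fbxo7, which binds Cdk6, by −0.02.

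Fbxl17 and Fbxo33 had small differences with close replicates. Fbxl17, which removes faulty dimers of BTB domain proteins, read 8.32 and 8.37 without Cre against 8.78 and 8.90 with Cre. Its difference of 0.49 ± 0.12 (SE) was above the spread within either group but did not pass over all genes (limma adjusted p = 0.108), and its other probe set differed by 0.09. Fbxo33 read 9.01 and 8.97 against 8.59 and 8.64, a difference of −0.37 ± 0.11 (limma adjusted p = 0.155), with −0.17 in its other probe set. Fbxo34 differed by 0.40 ± 0.14 and Fbxo10, a receptor for Bcl2, by 0.32 ± 0.12, both with groups apart and neither passing.

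The remaining genes taken up for their roles or signal differed by less. Fbxl5, the iron sensor that controls Ireb2, differed by 0.19 and its groups overlapped. Fbxo32, the muscle atrophy ligase atrogin-1, differed by −0.13, though another probe set gave 0.33. For Fbxw4, named for the limb mutant dactylaplasia, the difference was −0.21, and it was −0.26 for Fbxw17. Fbxo9 differed by −0.16, Fbxo3 by −0.10 and Fbxl14, a receptor for Snail, by 0.01.

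Probe sets of the same gene did not always give the same difference. Of 21 members with several probe sets above the minimum, Fbxw11 had the widest span. Fbxw11 encodes a β-TrCP protein, the receptor for IκB and β-catenin. Its brightest probe set, of the kind that can bind related sequences, read 12.22 and 12.10 without Cre against 12.37 and 12.51 with Cre, a difference of 0.28. Another read 7.59 and 7.52 against 6.84 and 6.84, a difference of −0.72. The 2 other probe sets above the minimum differed by −0.60 and 0.20, so that 2 of 4 were positive and 2 negative, and a probe set below the minimum differed by 0.16. Neither negative probe set passed when every probe set was tested on its own (limma adjusted p = 0.061 and 0.0791 over 20967 probe sets), and with the mean of its probe sets Fbxw11 differed by −0.14. In that test 0.868% of all probe sets passed.

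The probe sets of Fbxl20 above the minimum ran from 0.01 in the brightest to −0.75 in another, with −0.13 and −0.18 in the rest. The lowest read 7.21 and 7.12 without Cre against 6.55 and 6.29 with Cre (limma adjusted p = 0.0721 over probe sets). Fbxo30, a muscle atrophy ligase, differed by −0.61 in the chosen probe set, at 6.57 and 6.14 against 5.95 and 5.53, but by 0.17 and 0.18 in its other probe sets above the minimum. With the mean of its probe sets Fbxo30 differed by −0.04. Fbxw2 had 6 probe sets above the minimum that ran from −0.54 to 0.22, with −0.03 in the brightest. Whether such probe sets read different transcript forms was not tested.

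**Figure D3:**
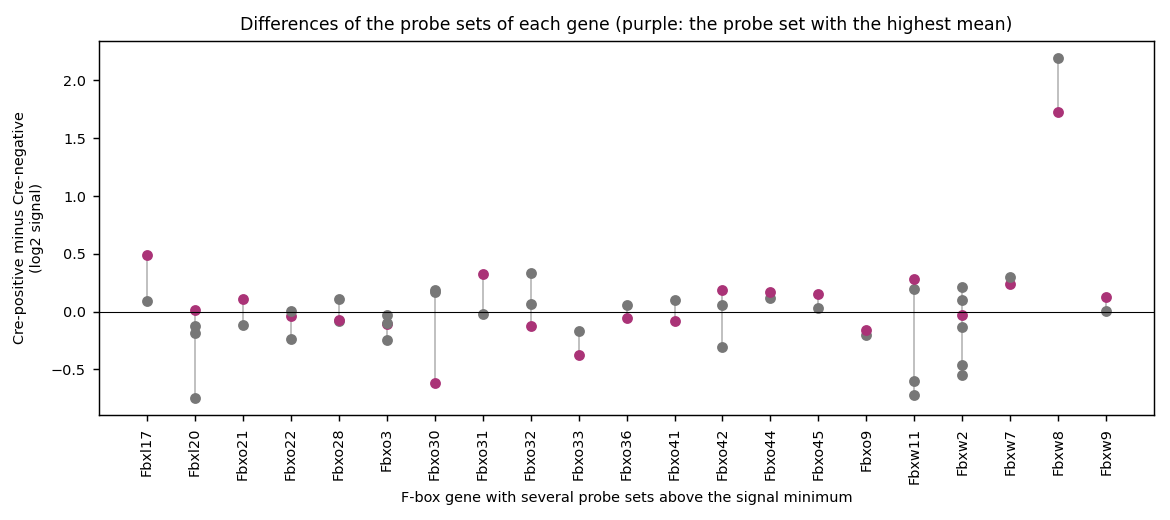
Difference in RMA log2 signal, Cre-positive minus Cre-negative, of each probe set above the signal minimum for the 21 F-box genes with several, joined by a line within a gene, purple marking the probe set with the highest mean. The Fbxw8 probe sets lie together at 1.73 and 2.20, while those of Fbxw11 run from −0.72 to 0.28 and those of Fbxl20 from −0.75 to 0.01.

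The genes beside Fbxw10 and Fbxw8 were read by their order on the chromosome in RefSeq (GRCm38.p6, protein-coding genes, 5 on either side). Those of Fbxw8 were added after its values were seen. Directly before Fbxw10 on chromosome 11 lies Trim16, a ubiquitin ligase of the TRIM family. Trim16 read 7.15 and 7.44 without Cre against 6.04 and 6.07 with Cre, so the groups were well apart. It fell by 1.24 (SE 0.14, limma adjusted p = 0.0277), but with any array left out it no longer passed, with an adjusted p between 0.0895 and 0.133, and its other probe set, below the minimum, differed by −0.26. With the mean of both probe sets Trim16 differed by −0.75 (limma adjusted p = 0.0919).

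On the other side of Fbxw10, Tvp23b, a Golgi membrane protein gene, read 10.35 and 10.01 against 9.65 and 9.63, a difference of −0.54 ± 0.15 that did not pass (limma adjusted p = 0.14). Beyond Trim16, the zinc finger gene Zfp286 read 7.29 and 7.37 against 6.58 and 6.80, a difference of −0.64 ± 0.13 (limma adjusted p = 0.0795), with −0.46 and 0.15 in its other probe sets. In their brightest probe sets these 4 genes in a row were thus all lower on both Cre-positive arrays, as were 18.7% of all kept genes. The size of the difference was smaller on either side of Fbxw10, whose low signal led to the choice of the family. Whether the 4 differences are linked was not tested. Past them the differences were positive or near zero, with Zfp287 at 0.27, Mmgt2 at 0.46 and Cdrt4 at −0.02. Lrrc75a, Tekt3 and Pmp22 lay below the minimum, and Gm29958 was not analysed here.

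Directly before Fbxw8 on chromosome 5 lies Tesc, which encodes the calcium-binding protein tescalcin. Its brightest probe set, of the kind that can bind several transcripts, read 6.10 and 5.68 without Cre against 9.13 and 8.03 with Cre. Tesc rose by 2.69 (SE 0.37, limma adjusted p = 0.0453), and Cre-positive sample 1 was the higher array, as for Fbxw8. The call on Tesc was lost without either Cre-negative sample or Cre-positive sample 1, with an adjusted p between 0.0657 and 0.226, and its other probe set, below the minimum, differed by 0.53. Leaving out probe sets of that kind gives Tesc no value above the minimum. The call was also lost with the mean of both probe sets (1.61, limma adjusted p = 0.0506), a robust prior, array weights or centring on kept genes. On the far side of Tesc the F-box gene Fbxo21 differed by 0.11 with overlapping groups, and after Fbxw8 Hrk, a proapoptotic gene, differed by 0.19. The other kept neighbours ran from −0.20 for Med13l to 0.27 for Rfc5. Over all genes, 10 of 156 called protein-coding genes that could be placed lay directly beside a gene called in the same direction. That count was made after these neighbours were seen and includes Fbxw10 and Trim16 themselves, so nothing is read from it about them.

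**Figure D4:**
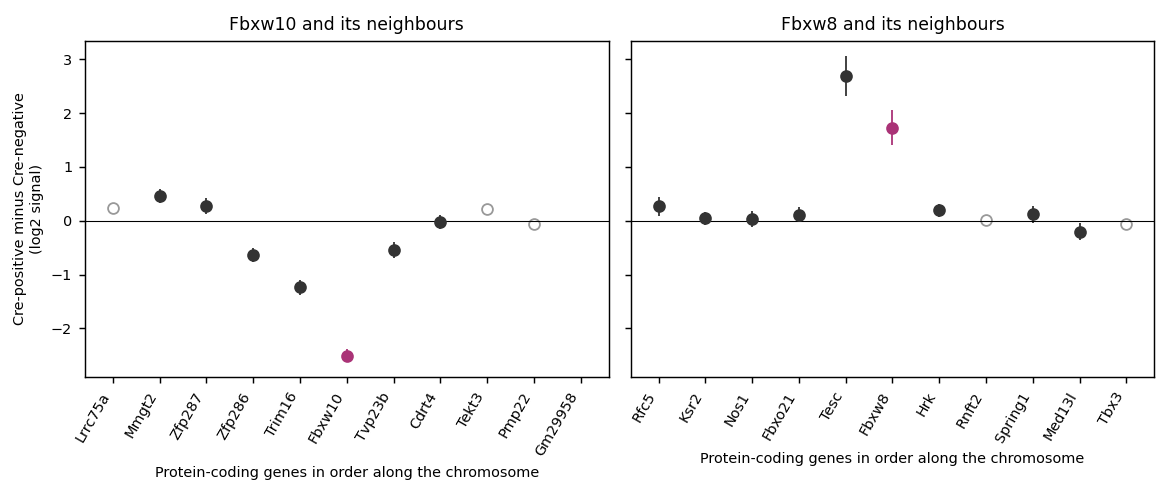
Difference in RMA log2 signal, Cre-positive minus Cre-negative, of Fbxw10 and Fbxw8 (purple) and 5 protein-coding genes on either side in chromosomal order, with bars of 1 SE from limma, open circles for genes below the signal minimum and no point for Gm29958. Differences are negative from Zfp286 to Tvp23b around Fbxw10, and only Tesc stands high beside Fbxw8 among the neighbours drawn.

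Markers of other cell types differed between the groups as well. Of 10 kept of 15 macrophage and granulocyte markers 3 rose in limma, Lyz1, Lyz2 and Ctss, 0 fell, and the mean of the list was 5.27 and 5.10 without Cre against 6.36 and 6.66 with Cre. Of 10 kept of 11 dendritic cell markers 2 rose, H2-Ab1 and Irf8, with list means of 5.68 and 5.39 against 6.27 and 6.35. Of 6 kept of 11 stromal and epithelial markers 1 rose, Pdgfrb, and the list means were 5.64 and 5.67 against 6.86 and 6.39. Within the Cre-positive group the order of the stromal means rests on Col1a2, at 11.55 in sample 1 and 8.01 in sample 2. Without Col1a2 the stromal means were 5.73 and 5.74 without Cre and 5.93 and 6.07 with Cre, so sample 2 was then the higher. S100a8 read 8.38 in sample 2 with Cre and 4.02 to 4.52 elsewhere. Over all kept genes 1.11% were called higher, and 34.2% had groups apart with higher signal in the Cre-positive mice. The groups were apart in that direction for 8 of the 10 macrophage and granulocyte and 7 of the 10 dendritic cell markers kept. The same held for 3 of the 6 stromal and epithelial markers kept. C1qb, C1qc, S100a8 and Itgax had means without Cre of 4.71, 4.58, 4.26 and 4.65, below the signal minimum. They passed it only through the Cre-positive arrays and so had to be higher there. Nothing is therefore read from the counts and list means that hold them. Among the markers of these lists that did not pass, H2-Aa differed by 2.25, C1qa by 1.11 and Tyrobp by 0.82, and the groups overlapped for Csf1r and Adgre1. Itgam, Xcr1, Col1a1, Col3a1 and Pdgfra were below the signal minimum. Of 4 kept of 6 B cell markers and 1 kept of 3 erythroid markers 0 passed in limma, with 1 and 0 at an unadjusted p under 0.05. That B cell marker was Ms4a1, higher by 0.71 with groups apart and a mean without Cre of 4.56, below the minimum. Of the 4 kept B cell markers 2 were higher and 2 lower. The part of other cells in the Fbxw8 and Fbxw10 values was not tested.

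Of the 8 core genes of the SCF system 0 passed in limma (2 at unadjusted p below 0.05) and the median difference was 0.06. Over all kept genes 1.37% passed and 20.6% had an unadjusted p below 0.05. The scaffold Cul1 differed by 0.26, the RING subunit Rbx1 by −0.36, the chaperone partner Sugt1 by 0.37 and the adaptor Skp1 by −0.02. Of 6 kept F-box genes with other symbols 0 passed in limma (0 at unadjusted p below 0.05). Their median was 0.28, against 0.06 for all genes, with Btrc, the other β-TrCP gene, at −0.35, and the histone demethylase genes Kdm2a and Kdm2b at 0.26 and 0.30. Kdm2a differed by −0.19 with the mean of its probe sets. Skp2 differed by 0.73 and the cyclin gene Ccnf by 0.48, the 2 highest differences of that list, with overlapping groups and sample 2 above sample 1 in both.

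Among 7 other cullins 0 passed in limma (2 at unadjusted p below 0.05), against 1.37% and 20.6% of all kept genes. Cul5, scaffold of the SOCS-box ligases, read 7.78 and 7.82 against 8.47 and 8.47, a difference of 0.67 ± 0.11 (limma adjusted p = 0.0579). It passed with a robust prior (limma adjusted p = 0.0494) or a block for the sample number, and with the mean of its probe sets it differed by 0.42. Cul4b differed by 0.51 and Cul9 by 0.14. Of 10 genes of neddylation, the attachment of Nedd8 that activates cullins, 0 passed (2 at an unadjusted p under 0.05). Dcun1d1, which promotes that step, read 9.60 and 9.65 without Cre against 8.95 and 8.73 with Cre. Its difference of −0.78 ± 0.13 stayed just short of the threshold (limma adjusted p = 0.0579). Dcun1d1 passed with a trended or robust prior, with centring on kept genes or with a block for the sample number. With the mean of its probe sets Dcun1d1 differed by −0.11. In their brightest probe sets Ube2f differed by 0.38 and Dcun1d3 by 0.29. Averaging their probe sets gave 0.17 and 0.20. The 9 subunits of the COP9 signalosome, which removes Nedd8, had a median of 0.13, led by Cops4 at 0.26, Cops7a at 0.24 and Cops5 at 0.22. The 6 kept genes of ubiquitin-conjugating E2 enzymes had a median of 0.09, with Ube2d3 at −0.17, Ube2g1 at 0.18 and Ube2r2 at 0.17. Both lists held 0 calls in limma, and 0 genes at an unadjusted p below 0.05.

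Among 22 genes for textbook substrates of F-box proteins 1 rose in limma, 0 fell and 21 did not pass, and the median was 0.17. At an unadjusted p under 0.05 were 5 genes, all higher, or 22.7% against 20.6% of all kept genes (14.3% higher). In limma 1.11% of all kept genes were called higher. Myc read 6.09 and 6.52 without Cre against 7.97 and 7.62 with Cre and rose by 1.49 (SE 0.20, limma adjusted p = 0.0414). It no longer passed when any array was left out, with an adjusted p between 0.0672 and 0.209, or with arrays centred on the median of kept genes (adjusted p = 0.0541). Notch1 read 11.05 and 11.12 without Cre against 12.45 and 11.93 with Cre, a difference of 1.10 ± 0.19 (limma adjusted p = 0.0657). It passed with a trended prior (limma adjusted p = 0.0451) or a block for the sample number. Wee1, a brake on entry into mitosis, differed by 0.73 ± 0.26, or by 0.42 with the mean of its probe sets. The substrate genes Ccne1, Ccne2, Rrm2 and Cdt1 are also on the proliferation list. These are transcript values and do not measure the proteins that F-box receptors act on. In the proliferation list 0 of 27 genes passed (4, or 14.8%, at an unadjusted p under 0.05), with Mcm5 at 0.91, Mcm4 at 0.57 and Mcm6 at 0.56.

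**Figure D5:**
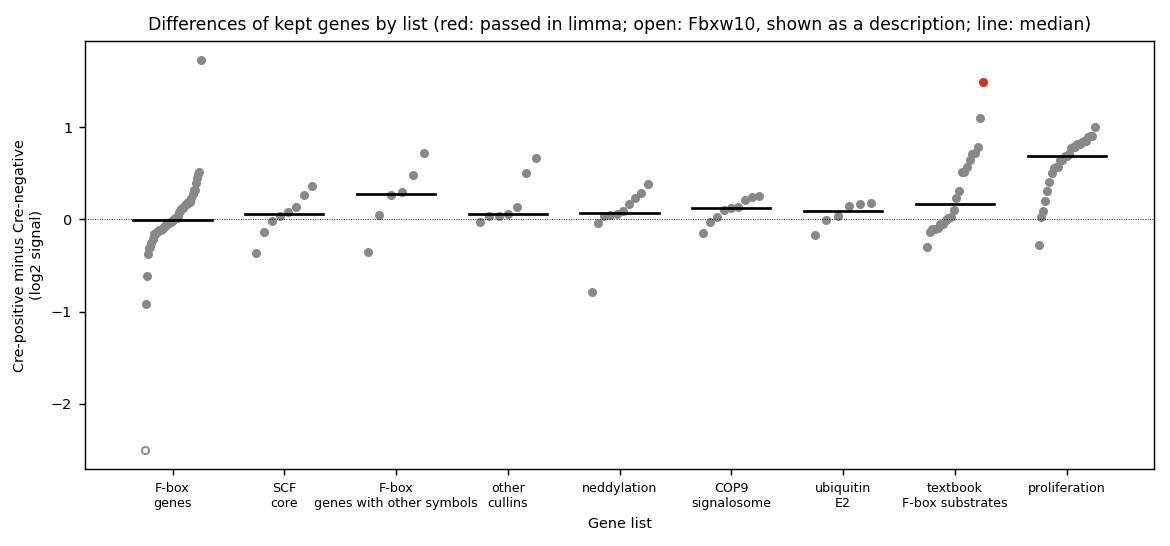
Difference in RMA log2 signal, Cre-positive minus Cre-negative, of each kept gene in the F-box family and 8 lists of related genes, with a line at the median of each list and red for genes that passed in limma. Fbxw10, which led to the choice of the family, is drawn open as a description. Medians lie between −0.01 for the F-box genes and 0.69 for the proliferation genes, and the red point is Myc at 1.49.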

How the data were processed

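RNA of double positive thymocytes from 4 mice was hybridised to Affymetrix mouse arrays. The log2 signals deposited by the authors came from RMA, per the submitters' processing notes, which give no version. Base 2 is the scale RMA returns, and no build is named. Gene names came from the platform annotation: 34945 probe sets had 1 symbol, 932 several and 9160 none, and all 67 members matched RefSeq. Genes took their brightest probe set and were kept at or above the 40th percentile of named probe sets (4.76). Groups were compared in limma 3.58.1 (R 4.3.3, lmFit and eBayes, two-sided) with Benjamini-Hochberg adjustment over 11639 genes, called at an adjusted p under 0.05. With 2 arrays per group an exact permutation test cannot go below p = 0.333, so calls rest on spread pooled across genes, and the number of arrays limits precision. The procedure was tested on simulated data.

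Named were Fbxw10, called members, the 10 largest differences in each direction, the 5 brightest members, members with probe sets opposed by at least 0.3 (none met this), members with known roles, called genes and the 3 smallest p of each list, and positional neighbours. Members and lists were chosen with earlier results of these data known. Alternatives varied filter, probe set, variance prior, array weights, scaling, a block for the sample number, and each array in turn. Starting RNA amounts in the labels are not tied to samples, and their part was not tested. Figures were drawn with matplotlib 3.10.9.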

Additional observations from a re-analysis of the deposited data

How the results depend on the processing

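The Fbxw10 difference lay between −2.63 and −2.46 under all 14 alternatives. The number of called genes was 160 and became 90 with the signal minimum at the 60th percentile, 245 with a robust variance prior, 821 with the sample number as a replicate block, and between 3 and 99 with an array left out (14 and 3 on dropping the Cre-negative mice 1 and 2, 43 and 99 on dropping the Cre-positive ones). Called F-box members numbered 4 under the replicate block, which added Fbxw8, Fbxo27 and Fbxo30, and between 0 and 2 with an array left out (0 without Cre-negative sample 2 and 2 without Cre-positive sample 2, where Fbxw8 passed), and 1 otherwise. Among the other named genes Cul5, Dcun1d1, Notch1, Wee1, Mcm5 and Zfp286 also passed under the replicate block. Nothing in the labels says that equal sample numbers pair mice. The deviations of the samples numbered 1 correlated at 0.18 across genes, and 2 pairs are too few to show pairing. The family median was −0.14 with arrays centred on the median of kept genes, an alternative added after seeing the data, and lay between −0.04 and 0.02 otherwise.

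Some differences changed sign, among them those of Fbxw11, Kdm2a and Fbxo5, which were 0.28, 0.26 and 0.51. Averaging all probe sets of a gene, Fbxw11 differed by −0.14, Fbxl20 by −0.26, Fbxo32 by 0.092, Fbxo4 by −0.055, Kdm2a by −0.19, Ube2d3 by 0.051, Nos1 by −0.12 and Fbxo21 by −0.00099. Leaving out cross-hybridising probe sets gave −0.18 for Fbxl20. With arrays centred on their median Fbxl14 differed by −0.023 and Fbxl20 by −0.018. Centring on kept genes gave −0.12 for Fbxl14, −0.12 for Fbxl20, −0.087 for Ksr2, −0.098 for Nos1, −0.016 for Fbxo21 and −0.011 for Spring1. With an array left out, ranges crossed zero for Fbxl14 (−0.092 to 0.11), Fbxo7 (−0.072 to 0.037), Ksr2 (−0.041 to 0.13), Nos1 (−0.13 to 0.19), Fbxo21 (−0.019 to 0.24), Fbxw16 (−0.44 to 0.13), Fbxl5 (−0.029 to 0.41), Fbxl20 (−0.10 to 0.12), Cul9 (−0.022 to 0.30), Cdrt4 (−0.12 to 0.072), Spring1 (−0.019 to 0.25) and Fbxo5 (−0.0016 to 1.03). The cause was not tested. Probe sets near the signal minimum limit the size of any difference, and leaving out an array leaves 1 sample in a group, which is assumed to vary like the others.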
